A study of Meloidogyne incognita with 75 samples.

Results

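The adult female of the southern root-knot nematode, Meloidogyne incognita, was set against the par_J2 stage, the second-stage juvenile at the start of the sedentary part of the life cycle. All 7 libraries titled female and all 12 titled par_J2 were taken, 19 of the 75 single-nematode libraries of the series, and every transcript of the full count table was compared between them. The transcripts that differed were then followed through the 30 libraries titled J3, J4 and J4_female, which lie between these ends. The title J4 gives no sex, and no title sets J4_female after J4. Sex and time therefore cannot be told apart between these groups, and J4_female is listed last only for description. Each library was made by Smart-seq2, a low-input protocol that copies full-length messenger RNA, from 1 whole worm picked under a microscope with a pipette and staged by its shape. The female group carries the stage tag "Adult female". No strain, age, host plant, egg-laying state, sequencing batch, date or plate is given for any of these groups, so a batch that goes with stage cannot be told apart from stage. By their titles the libraries are separate individuals, and p-values measure the spread between these individuals.

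Root-knot nematodes enter plant roots as second-stage juveniles, settle at a feeding site of enlarged plant cells called giant cells, and lose the ability to move away. The later juvenile stages, J3 and J4, are known to lack a functional stylet, the hollow mouth spear used for feeding, and to take no food. The adult female regains the stylet, feeds again, swells and fills with reproductive tissue, and lays its eggs into a gelatinous matrix, in this species without fertilisation.

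The 7 female and 12 par_J2 libraries held 6231057 to 40174566 counts each, and those of J3, J4 and J4_female 3265447 to 24701667. The table lists 45378 transcripts by identifier. The files do not pair identifiers with gene names or sequences, so transcripts are described by identifier without a function, and markers of tissues, RNA quality or plant material were not analysed here. No pair of libraries within a group agreed within sampling noise. Some libraries stood apart from their group. Female replicate 6 had a median Spearman correlation across transcripts of 0.726 with the J3 libraries, against 0.624 to 0.655 for the other females. The par_J2 replicates 10, 11 and 12 correlated at 0.793, 0.796 and 0.815 with J3, against 0.624 to 0.729 for the other par_J2 animals. Counts of calls, crossing stages and some named transcripts are given below with and without these libraries. The tests of transcripts detected and of the most abundant transcripts, and the shares of the called lists, include all of them.

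More transcripts were detected in female than in par_J2 animals, yet far more of the female counts came from a few of them. At least 1 count was found for 30168 ± 4799 transcripts in female (SD, n = 7) and 24334 ± 3476 in par_J2 (SD, n = 12; exact permutation test, two-sided, p = 0.00671). The ranges overlapped, from 23266 to 37592 in female and from 19734 to 31386 in par_J2. Female replicate 6 was the highest female, and par_J2 replicates 10, 11 and 12 were the highest of par_J2, at 27452, 31386 and 27232. With all 19 libraries thinned to equal depth the means were 28818 ± 4008 in female and 23856 ± 3638 in par_J2 (exact p = 0.0137). Thinning evens out depth but not the amount of RNA per worm, which is not given. Without thinning, the means in J3, J4 and J4_female were 32404, 33534 and 29458 transcripts, so par_J2 had the lowest mean of the 5 stages. The 50 most abundant transcripts of each library took 47.4 ± 8.41% of the counts in female and 15.2 ± 3.56% in par_J2, a difference of 32.2 percentage points. No female lay below 39.2% and no par_J2 animal above 24.1% (exact permutation test, two-sided, p = 1.98e-05, the smallest that 50388 splits can give). The same held for the 10 most abundant, with 24.1 ± 5.24% in female and 6.55 ± 2.97% in par_J2, and for the 500 most abundant, with 68.9 ± 7.11% and 40.1 ± 3.38% (exact p = 1.98e-05 each). Such concentration lowers the CPM, the counts scaled to the library total, of all other transcripts in female. The trimmed mean of M values (TMM), which scales libraries so that the bulk of transcripts shows no mean difference, gave factors of 0.341 to 0.822 in female and 1.04 to 1.60 in par_J2. Levels below are CPM of the library total unless named TMM-scaled CPM.

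Of 25813 transcripts with enough counts to test, 2130 were higher and 2247 lower in female than in par_J2 by edgeR, at an adjusted p under 0.05 and a log2 fold change of at least 1 in size. These are 8.25% and 8.7% of those tested, 17% together, and 7418 transcripts had an unadjusted p under 0.05. The size of the changes by direction depended on the scale. The median log2 fold change was 3.81 among the transcripts called higher, -2.10 among those called lower and -0.14 over all tested, as edgeR fitted them with TMM. On CPM the sizes were closer, with a median log2(CPM + 1) level of 4.87 in female and 1.65 in par_J2 for those called higher and of 2.64 in female and 5.47 in par_J2 for those called lower. With TMM, a change of 10-fold or more was fitted for 1207 of the increases and 730 of the decreases, and of 100-fold or more for 496 and 174. In whole animals, more cells of a kind and more RNA per cell cannot be told apart. The balance of directions depended on scaling. With total counts alone, which moved the median of all tested transcripts by -1.02 on the log2 scale to -1.16, 1243 were higher and 6760 lower. Size factors by relative log expression gave 2406 higher and 1815 lower, with a median of 0.03. Without par_J2 replicates 10, 11 and 12 the counts were 2089 higher and 2814 lower, without female replicate 6 they were 2041 and 2263, and without all 4 libraries 1970 and 2832.

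**Figure D1:**
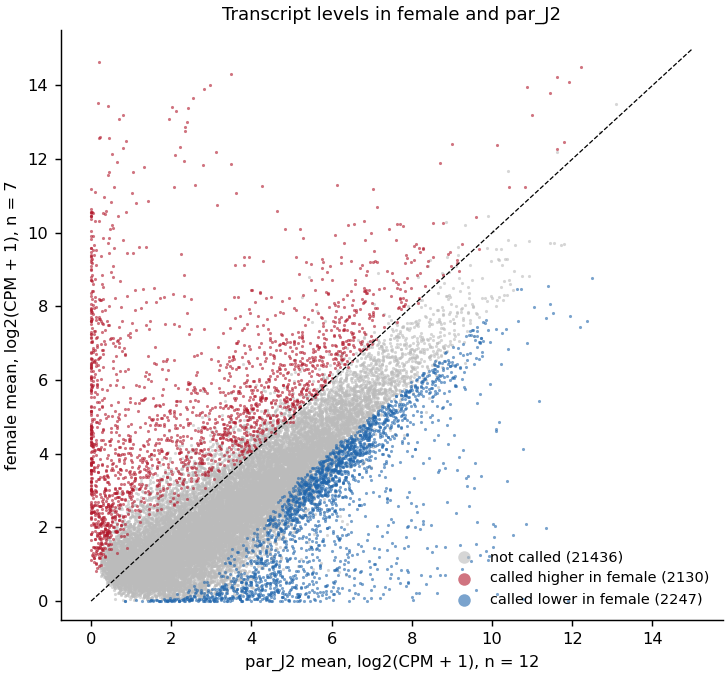
Mean level of each tested transcript as log2(CPM + 1) in female (vertical axis, n = 7) and par_J2 (horizontal axis, n = 12), 1 point per transcript, with the dashed line marking equal CPM. The 2130 transcripts called higher in female (red) lie mainly above the line and reach far from it at low par_J2 levels, and the 2247 called lower (blue) lie below it.

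For many transcripts every female lay beyond every par_J2 animal. On TMM-scaled CPM this was so for 1158 of the 2130 called higher and 423 of the 2247 called lower, where 4.8% and 1.65% of all tested transcripts had ranges apart in that direction. On CPM it was so for 649 and 1133, against 2.51% and 5.88% of all tested. The calls used the same levels, so these counts describe the called transcripts and add no support. Of those called higher, 150 had no count in any par_J2 library, and of those called lower 48 had none in any female. The share of all tested transcripts without such counts was not taken, so these numbers only describe the lists. Over all 45378 transcripts, 200 had counts in every female and none in par_J2, and 6 had counts in every par_J2 animal and none in female. These rules are unlike, since the first asks for counts in 7 libraries and the second in 12. More transcripts were also detected per female library, so the numbers cannot be set against each other.

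The transcripts called higher took most of the female counts, which were not scaled by transcript length. They held 67.0 ± 8.17% of the counts in female (SD, n = 7) and 8.20 ± 2.21% in par_J2 (SD, n = 12), a gap that follows from how they were chosen. Ranked by their mean share, 10 of them held 18.0% of the female counts, 50 held 41.0% and 100 held 48.4%. The transcripts called lower held 3.50 ± 0.833% of the counts in female and 31.5 ± 4.60% in par_J2, and were spread more evenly, the leading 10, 50 and 100 holding 3.72, 8.58 and 12.1% of the par_J2 counts. The 21436 tested transcripts without a call held 28.9 ± 6.96% in female and 59.7 ± 3.79% in par_J2.

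The stages between, which had no part in the calls, lay nearer par_J2 in the share of the higher transcripts and about midway in that of the lower ones. The 2130 called higher took 16.3 ± 3.40% of all J3 counts (n = 14), 18.7 ± 10.3% in J4 (n = 8) and 22.3 ± 7.89% in J4_female (n = 8). No library of these 3 stages reached the lowest female, at 53.4%. The list was chosen for high levels in these females, so this gap follows in part from that choice. The 2247 transcripts held 17.4% in J3, 16.1% in J4 and 14.4% in J4_female.

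**Figure D2:**
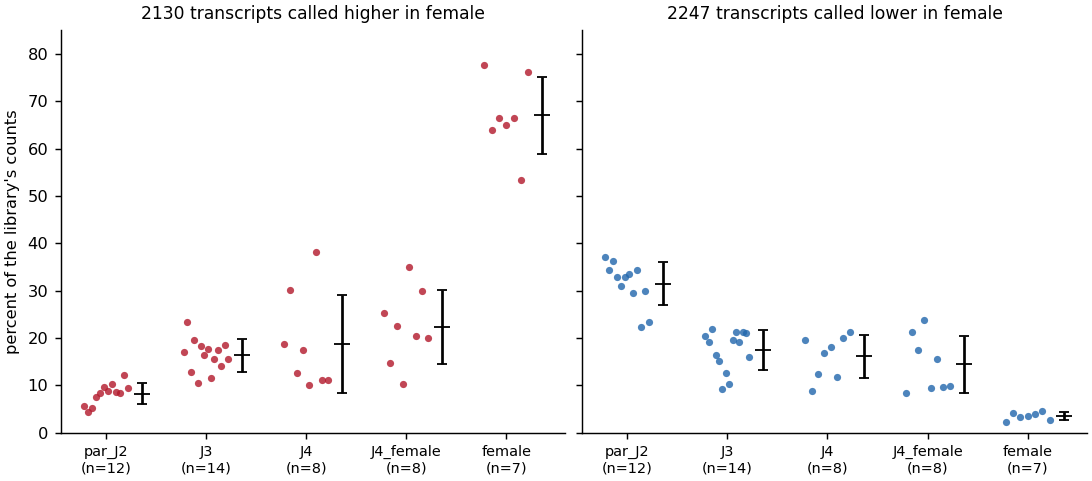
Percent of each library's counts held by the 2130 transcripts called higher (left) and the 2247 called lower (right) in female, by stage from par_J2 to female, 1 point per library, with the mean and SD as a black bar beside the points. The share of the higher transcripts averages 16.3 to 22.3% in J3, J4 and J4_female and is 67.0% in female, while that of the lower ones averages 31.5% in par_J2, 17.4% in J3 and 3.50% in female.

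Much of the female share came from transcripts that were scarce in par_J2. The 783 called higher with a mean under 1 CPM in par_J2 held 20.5 ± 6.55% of the female counts and 0.0213% of those of par_J2. In J3, J4 and J4_female they held 0.0963, 0.878 and 1.18%, and no J4_female library exceeded 2.62%. Another 532 with 1 to 10 CPM in par_J2 held 17.1 ± 3.91% in female, 0.219% in par_J2 and 2.77% in J4_female. The 678 with 10 to 100 CPM held 10.8% in female and 2.31% in par_J2. The 137 that already stood at 100 CPM or more in par_J2 held 18.7 ± 7.89% in female and 5.65 ± 2.07% in par_J2. In the stages between, these abundant ones held 12.1% of the counts in J3, 11.1% in J4 and 11.9% in J4_female. In the other groups they held 1.28% in pre_J2, the juvenile hatched in vitro, and 4.09% in J4_moulting, the moulting J4 animals. They held 2.59% in the libraries titled male, whose stage tag reads J4_male. All of these sets were chosen by their par_J2 and female levels, so lower shares in other stages follow in part from that choice.

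Among the transcripts called lower, the 580 with a mean under 1 CPM in female held 0.0171% of the counts in female and 2.80% in par_J2. Another 836 with 1 to 10 CPM in female held 0.410% there and 6.87% in par_J2, and 780 with 10 to 100 CPM held 2.21% in female and 14.8% in par_J2. The 51 that kept 100 CPM or more in female held 0.866% there and 7.0% in par_J2.

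The 8 higher transcripts with the smallest p were close to absent from par_J2. Mi_19159.1 stood at 59.5, 185 and 278 CPM in female (lowest, median and highest), and it had 2 counts in all 12 par_J2 libraries, which makes the pooled level 17190-fold higher (exact 95% interval from counting 4758 to 141949; edgeR adjusted p = 3.57e-12). It was at a median of 0 CPM in J3, 0.930 in J4 and 0.306 in J4_female, and its highest value in these stages was 10.9 CPM in a J4_female animal, below every female. Mi_03828.1 stood at 66.5, 208 and 301 CPM in female and had 3 counts in par_J2, making it 12055-fold higher (4125 to 58461; adjusted p = 3.57e-12). Such intervals, and the floors used below, cover only the error of counting, since Smart-seq2 carries no molecular identifiers.

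Mi_02658.1 was at 87.5, 576 and 898 CPM in female, with 3 counts in par_J2, 35363-fold higher when pooled (12100 to 171481). Mi_05210.1 was at 121, 279 and 1214 CPM in female, with 3 counts in par_J2, 25016-fold higher (8560 to 121310). It stayed at or under 1.03 CPM in every J3, J4 and J4_female library. For Mi_11115.1 the female values were 48.2, 221 and 1040 CPM, with 3 counts in par_J2, 21643-fold higher (7405 to 104953).

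Mi_26301.1, with 5 counts in par_J2, reached 160 to 806 CPM in female, and Mi_26523.1, with 4, reached 139 to 1963 CPM. All 8 had ranges apart from par_J2 on both scales. Mi_22144.3, the last of them, also appeared in late juveniles. It stood at 162, 634 and 1200 CPM in female and had 2 counts in par_J2, a pooled difference of 67950-fold (18810 to 561090; adjusted p = 5.43e-12). In J4_female it ran from 1.97 CPM through a median of 6.07 to 4430 CPM in 1 animal, above every female, and in J4 up to 716 CPM with a median of 0. In the separate comparison of J4_female with J3 it was higher by 10.08 on the log2 scale (edgeR adjusted p = 0.0261).

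The called transcripts that took the most counts in female were of distinct kinds. Mi_28065.1 held 118, 24551 and 59279 CPM in female and at most 0.899 CPM in par_J2 (log2 fold change 18.54, SE 1.52, edgeR adjusted p = 9.49e-09). It did not exceed 7.24 CPM in any J3, J4 or J4_female library. Mi_01157.1 was at 80.8, 20989 and 49533 CPM in female and 0.467, 9.91 and 20.03 CPM in par_J2 (12.30, SE 0.97, adjusted p = 4.90e-09). In both, female replicate 6 was the lowest female by far and still lay above every par_J2 library. Mi_01157.1 was present but low in the stages between, with medians of 11.3 CPM in J3, 3.68 in J4 and 6.27 in J4_female.

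The other 3 were already abundant in par_J2. Mi_20124.1 was at 4611, 24816 and 38293 CPM in female and 777, 4187 and 11828 CPM in par_J2 (3.46, SE 0.56, adjusted p = 7.95e-05). Its ranges overlapped, and its J3 values ran from 5625 to 22418 CPM. Mi_02594.1 was at 5800, 15006 and 37347 CPM in female and 814, 3363 and 7095 CPM in par_J2 (3.86, SE 0.53, adjusted p = 1.14e-05), apart on TMM-scaled CPM and overlapping on CPM. Mi_16815.1 was at 5153, 13517 and 37734 CPM in female and 926, 3890 and 8260 CPM in par_J2 (3.45, SE 0.54, adjusted p = 6.33e-05). All 3 were scarce in pre_J2 and male. Mi_20124.1 did not exceed 17.1 CPM in pre_J2 or 20.6 in male, and the others did not exceed 58.2 CPM there. In J4_moulting, the libraries of moulting J4 animals, single animals reached 3283 CPM of Mi_20124.1, 10349 CPM of Mi_02594.1 and 9315 CPM of Mi_16815.1. In J4 and J4_female the same transcripts ranged widely between animals, Mi_20124.1 from 1529 to 35266 CPM in J4 and from 322 to 37456 CPM in J4_female.

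Of the 150 called higher without any par_J2 count, the 3 with the most female counts were Mi_21607.1, Mi_30855.1 and Mi_42650.1. Mi_21607.1 was at 43.4, 2716 and 5129 CPM in female, at least 122792-fold higher than in par_J2 by a floor of 3 counts over the 12 libraries (edgeR adjusted p = 3.39e-07). Mi_30855.1 was at 50.6, 1575 and 3235 CPM, at least 95419-fold higher (adjusted p = 5.62e-08). It was listed at 0 in most J3, J4 and J4_female libraries and did not exceed 0.730 CPM in any of them. Mi_42650.1 was at 29.0, 873 and 5572 CPM, at least 67180-fold higher (adjusted p = 2.65e-06), and 1 J4 animal held 136 CPM.

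**Figure D3:**
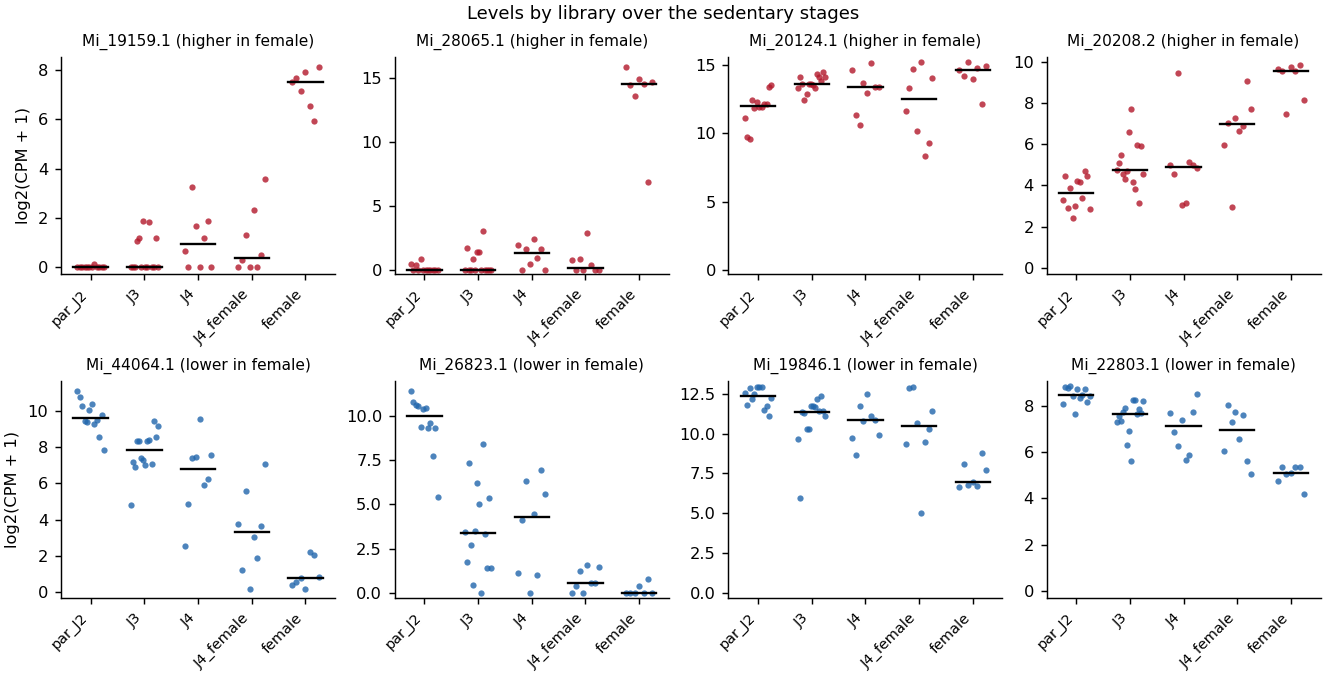
Levels of 8 named transcripts as log2(CPM + 1) by stage from par_J2 to female, 1 point per library and a black line at the median (4 higher in female in red, 4 lower in blue). Mi_19159.1 and Mi_28065.1 stay near 0 until female, Mi_20124.1 is high in all 5 stages, Mi_20208.2 has intermediate J4_female animals, Mi_44064.1 and Mi_26823.1 are lower from J3 on, and Mi_19846.1 and Mi_22803.1 keep high values in most J4_female animals.

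The lower transcripts with the smallest p were present in every par_J2 animal and low or without counts in female. Mi_44064.1 was at 0.145, 0.726 and 3.76 CPM in female and 228, 784 and 2192 CPM in par_J2 (log2 fold change -8.47, SE 0.75, edgeR adjusted p = 3.07e-08). Its medians in the stages between were 242 CPM in J3, 121 in J4 and 9.31 in J4_female. Mi_38656.1 was at 0.413, 1.77 and 6.36 CPM in female and 167, 1029 and 4118 CPM in par_J2 (-8.09, SE 0.80, adjusted p = 1.30e-07), and its J3 median was already 38.02 CPM.

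Mi_14066.1 was at 0 to 0.484 CPM in female and 59.0 to 946 CPM in par_J2 (-10.10, SE 0.96, adjusted p = 8.11e-08). Mi_12223.1 was at 0 to 0.473 CPM in female and 80.6 to 549 CPM in par_J2 (-9.24, SE 0.91, adjusted p = 1.30e-07). Mi_28659.1 had 5 counts in the 7 females together and stood at 20.2 to 701 CPM in par_J2 (-11.55, SE 1.10, adjusted p = 8.11e-08). Its medians were 471 CPM in J3, above par_J2, 25.9 in J4 and 0 in J4_female, where 1 animal still held 956 CPM.

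Decreases with smaller log2 fold changes were among them as well. Mi_22803.1 was at 17.3, 32.9 and 39.6 CPM in female and 200, 349 and 462 CPM in par_J2 (-2.44, SE 0.24, adjusted p = 1.14e-07), with medians of 202 CPM in J3, 141 in J4 and 126 in J4_female. Mi_04773.1 was at 0.127 to 3.28 CPM in female and 127 to 787 CPM in par_J2 (-6.70, SE 0.64, adjusted p = 8.28e-08). Mi_36671.1 was at 0.921 to 2.71 CPM in female and 29.4 to 336 CPM in par_J2 (-5.19, SE 0.48, adjusted p = 6.44e-08), with a J3 median of 16.2 CPM.

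Of the 5 lower transcripts with the most par_J2 counts, all but Mi_44133.1 had counts in every female. Mi_03944.1 was at 178, 323 and 927 CPM in female and 2633, 5471 and 10790 CPM in par_J2 (-2.63, SE 0.43, edgeR adjusted p = 0.000109). Mi_19846.1 was at 102, 123 and 440 CPM in female and 2226, 5241 and 7735 CPM in par_J2 (-3.74, SE 0.46, adjusted p = 2.63e-06). Mi_11251.1 was at 84.8, 96.0 and 520 CPM in female and 2101, 4616 and 8032 CPM in par_J2 (-3.75, SE 0.48, adjusted p = 4.36e-06). In all 3 the ranges were apart, and J4_female animals spanned both ends, Mi_19846.1 for example running from 31.0 to 7669 CPM there. Mi_01326.1 was at 139 to 295 CPM in female and 2672 to 5325 CPM in par_J2 (-3.04, SE 0.37, adjusted p = 2.11e-06).

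Mi_44133.1, the other one of the 5, had no count in any female and was very uneven in par_J2, at 0, 392 and 16016 CPM. Pooled, it was at least 244592-fold lower in female (adjusted p = 0.00216), and the groups touched at 0. Mi_21863.1 and Mi_27217.1, also without a count in female, were at 3.17 to 321 CPM and 9.25 to 238 CPM in par_J2, at least 5510-fold and 4150-fold lower in female (adjusted p = 2.45e-06 and 1.59e-07).

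To place the changes along the stages in their listed order, stage means of log2(CPM + 1) were taken in J3, J4 and J4_female. They were set on a line from par_J2, at 0, to female, at 1. A transcript was said to cross at the first of these stages from which it stayed above the midpoint of 0.5, and otherwise at female. Every transcript at or below 0.5 in J4_female was thus counted at female, even if above it in J3 or J4. The ends were also used for the calls, so crossing at female follows in part from that choice. Most of the increases crossed at female on either scale. On CPM, 2114 of the 2130 could be placed, since the CPM means of the rest differ in the other direction: 316 (14.9%) crossed at J3, 159 (7.52%) at J4, 322 (15.2%) at J4_female and 1317 (62.3%) at female. On TMM-scaled CPM the counts were 79 (3.71%), 55 (2.58%), 252 (11.8%) and 1744 (81.9%) of 2130. The 1317 crossed at female on both scales.

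The decreases depended on the scale. On CPM, 147 (6.54%) of the 2247 crossed at J3, 200 (8.9%) at J4, 598 (26.6%) at J4_female and 1302 (57.9%) at female. On TMM-scaled CPM 474 (21.1%) crossed at J3, 558 (24.8%) at J4, 487 (21.7%) at J4_female and 728 (32.4%) at female. The stage was the same on both scales for 147 at J3, 151 at J4, 332 at J4_female and 728 at female. Among decreases with a log2 fold change of 3 or more in size, 188 (23.5%) crossed at female on CPM, against 937 (71.4%) of the increases of that size. The middle position was 0.251 in J3, 0.307 in J4 and 0.378 in J4_female for the increases on CPM and 0.289, 0.348 and 0.449 for the decreases. On TMM-scaled CPM it was 0.192, 0.170 and 0.253 for the increases and 0.365, 0.602 and 0.658 for the decreases. Without par_J2 replicates 10, 11 and 12, 222 decreases crossed at J3 on CPM, more than 1.5 times the 147 found with them, and 1209 crossed at female. Without female replicate 6, 1342 increases and 1349 decreases crossed at female.

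**Figure D4:**
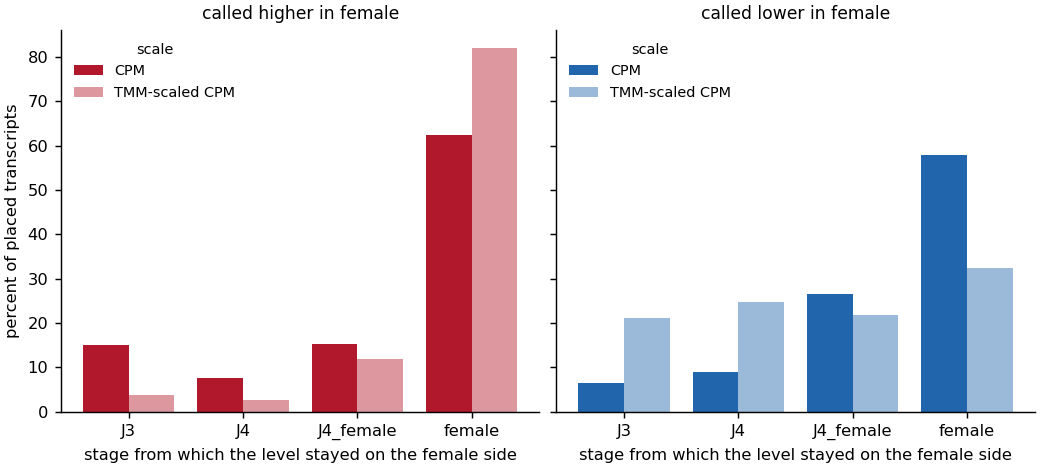
Percent of the transcripts called higher (left, red) and lower (right, blue) in female that crossed the midpoint between their par_J2 and female levels at each stage, on CPM (solid bars) and TMM-scaled CPM (pale bars). Increases cross mainly at female on both scales, 62.3 and 81.9%, while decreases cross at female in 57.9% on CPM and 32.4% on TMM-scaled CPM. Transcripts at or below the midpoint in J4_female are counted at female.

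Not every path ran straight between the ends. On CPM, 182 of the increases stood above their female mean in J3, 255 in J4 and 251 in J4_female, and 297, 263 and 213 stood below their par_J2 mean. On TMM-scaled CPM only 10, 39 and 31 stood above the female mean, and 249, 360 and 204 below the par_J2 mean. Of the decreases, 149 stood above their par_J2 mean in J3, 104 in J4 and 46 in J4_female on CPM, and 225, 58 and 66 on TMM-scaled CPM.

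The transcripts with the smallest p at each crossing stage show these paths. Mi_34414.1, which crossed at J3 on CPM, was at 72.9, 103 and 265 CPM in female and 7.07, 33.1 and 62.6 CPM in par_J2 (log2 fold change 3.02, SE 0.39, edgeR adjusted p = 5.03e-06). Its median was highest in J4, at 219 CPM. Mi_34407.1 did the same, at 73.9, 145 and 278 CPM in female and 8.51, 56.9 and 72.1 CPM in par_J2 (2.69, SE 0.37, adjusted p = 1.18e-05), with a J4 median of 322 CPM. All of the named increases crossed at female on TMM-scaled CPM, these included.

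Mi_23347.1, which crossed at J4 on CPM, was at 83.2, 109 and 338 CPM in female and 0.855, 2.70 and 17.8 CPM in par_J2 (6.15, SE 0.60, adjusted p = 1.08e-07). Its medians were 6.90 CPM in J3, 25.3 in J4 and 35.4 in J4_female. Mi_04623.1 was at 22.5, 56.2 and 74.0 CPM in female and 2.84, 7.97 and 28.8 CPM in par_J2 (3.67, SE 0.38, adjusted p = 2.73e-07), with single animals of J3, J4 and J4_female at 385, 464 and 295 CPM. Mi_20208.2, which crossed at J4_female, was at 177, 754 and 919 CPM in female and 4.46, 11.5 and 24.9 CPM in par_J2 (6.68, SE 0.42, adjusted p = 1.80e-10). Its medians were 25.6 CPM in J3, 28.9 in J4 and 124 in J4_female, and it was also present in pre_J2, at 94.0 to 276 CPM.

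Among the decreases, Mi_26823.1 had its largest step at J3. It was at 0 to 0.735 CPM in female and 41.7, 1080 and 2777 CPM in par_J2 (-11.83, SE 1.19, adjusted p = 1.72e-07), with medians of 9.39 CPM in J3, 18.7 in J4 and 0.462 in J4_female. Mi_27217.1 crossed at J4 on both scales, with medians of 71.6 CPM in par_J2, 16.7 in J3, 6.08 in J4 and 1.65 in J4_female.

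Single animals were then placed on the same axis by the mean log2 level of all transcripts called higher minus that of all called lower, scaled so that the par_J2 animals average 0 and the females 1, a description with no test. On TMM-scaled CPM the par_J2 animals lay from -0.075 to 0.140, those of J3 from 0.173 to 0.388, of J4 from 0.218 to 0.468, of J4_female from 0.271 to 0.514 and the females from 0.799 to 1.105. J3, J4 and J4_female overlapped each other, but no animal of these stages overlapped either end. The transcripts were called from the par_J2 and female libraries themselves, so this distance from the ends follows in part from that choice. The par_J2 replicates 10, 12 and 11 were the highest of their group, at 0.140, 0.089 and 0.068. Female replicate 6 was the lowest female at 0.799, and the next stood at 0.978.

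**Figure D5:**
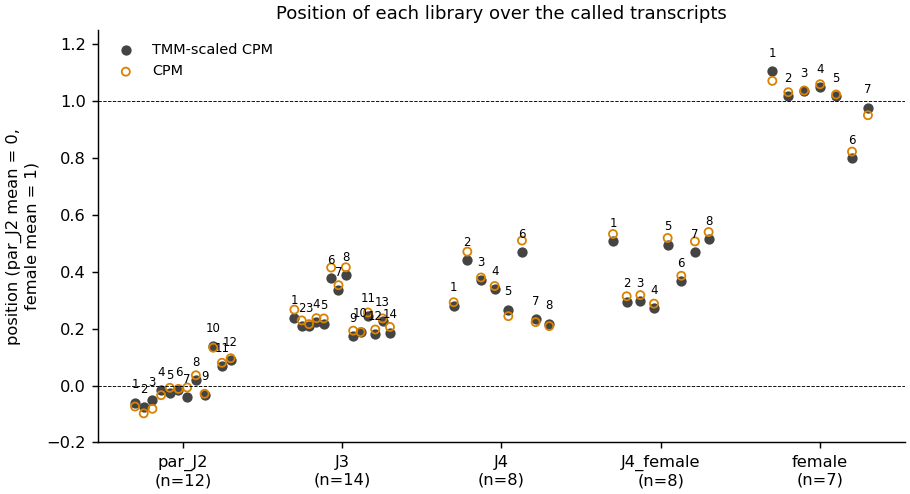
Position of each library between the par_J2 mean (0) and the female mean (1), from the called transcripts, by stage, with replicate numbers, on TMM-scaled CPM (filled) and CPM (open). All J3, J4 and J4_female animals lie between 0.173 and 0.514 on TMM-scaled CPM, and female replicate 6 at 0.799 is the female nearest to them.

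The lower position of female replicate 6 went with many transcripts. It was the lowest of the 7 females for 1054 of the 2130 transcripts called higher, against 88 to 263 for each other female, and the highest for 824 of the 2247 called lower, against 197 to 552. Ties were counted for every female that shared them, so the latter counts include the 48 called lower without a count in any female. On TMM-scaled CPM it lay at least 10-fold below every other female for 20 of the called higher, Mi_28065.1 and Mi_01157.1 among them, and at least 10-fold above every other female for another 20. For each other female, 0 to 12 lay as far below all the rest and 0 to 16 as far above. The 20 low ones held 0.0334% of its counts and 3.15 to 11.7% in the other 6 females. On CPM some of them lay less far below the lowest other female, Mi_00928.1 by 4.31-fold, while Mi_28065.1 and Mi_01157.1 lay 107-fold and 104-fold below. Some were near 0 in female replicate 6, such as Mi_03800.1 at 0 CPM and Mi_41423.1 at 0.0565 CPM. Female replicate 6 also had the most transcripts detected of any female, 37592, and its 35372449 counts were more than those of all but 1 other female.

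A comparison that shares no library with female against par_J2 was made between J4_female and J3, listed last and first among the stages between. Few transcripts passed the test there. Of 29954 tested by edgeR, 183 rose (0.611%) and 81 fell (0.27%) in J4_female. Of the 2130 transcripts higher in female, 1725 were tested, of which 51 rose and 0 fell in J4_female. Unadjusted p was under 0.05 for 33 that were lower, and DESeq2 called 5 lower and limma-voom 0. Of the 2247 lower in female, 2199 were tested, of which 39 fell and 11 rose. The median log2 fold change of J4_female over J3 was 0.48 for the first list, with 71.6% of its transcripts above 0, and -0.29 for the second, with 33.2% above 0, beside 0.07 and 53.5% for all tested. These counts of calls were unstable: 37 were higher without J3 replicate 1 or 5 and 437 without J4_female replicate 2, while limma-voom called 4 higher and 4 lower and DESeq2 1085 and 570. The higher count moved by more than 1.5 times without J3 replicate 1, 2, 3, 4, 5, 8, 9, 10, 11, 12 or 14 (37 to 99), J4_female replicate 7 (73) or J4_female replicate 1, 2, 3 or 4 (307 to 437). The lower count did so without J3 replicate 1, 2, 3, 4, 5, 6, 8, 9, 10, 12 or 14 (23 to 53), J4_female replicate 7 or 8 (33 and 50) or J4_female replicate 1, 2 or 3 (144 to 162). The list medians relative to that of all tested kept their signs in every alternative run.

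Named transcripts that passed this test included 3 of the decreases. Mi_44064.1 was lower in J4_female by a log2 fold change of -3.39 (adjusted p = 0.0499), Mi_12223.1 by -4.26 (0.0475) and Mi_26823.1 by -5.85 (0.0466). All lie close to the threshold. Their medians were 9.31, 1.64 and 0.462 CPM in J4_female and 242, 52.2 and 9.39 CPM in J3.

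In pre_J2 and male, most of the transcripts lower in female lay nearer their female level, and in J4_moulting this depended on the scale. Both lists were chosen by their par_J2 and female levels, so lower levels elsewhere follow in part from that choice. In pre_J2 1647 of the 2247 (73.3%) lay nearer their female than their par_J2 level on TMM-scaled CPM and 1638 (72.9%) on CPM, and in male 1449 (64.5%) and 1328 (59.1%). In J4_moulting it was 1421 (63.2%) and 1002 (44.6%). Fewer of the transcripts higher in female lay nearer their female level. On TMM-scaled CPM these were 298 of the 2130 (14%) in pre_J2, 335 (15.7%) in J4_moulting and 338 (15.9%) in male. On CPM they were 330 (15.6%), 608 (28.8%) and 419 (19.8%) of the 2114 placed. The 2130 held 5.03% of the counts in pre_J2, 8.97% in J4_moulting and 6.76 ± 0.622% in male (n = 7). The 2247 held 10.15% in pre_J2, 13.7% in J4_moulting and 11.38% in male, against 3.50% in female and 31.5% in par_J2.

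No gene, by the first part of the identifier, had transcripts called in opposite directions. Over all tested transcripts 8.25% were called higher and 8.7% lower. Of 583 genes with 2 or more transcripts tested, 51 had a higher call and 64 a lower call, and 0 had both. In 84 of these a transcript without a call stood beside a called one, and in 31 all tested transcripts were called, 24 genes higher and 7 lower. Counts of near-identical transcripts may be split between them, since how such reads were counted is not given in the sources used here.

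The transcripts with the most counts and no call varied widely within both stages. Mi_00696.1 was at 168, 2704 and 64380 CPM in female and 556, 3348 and 62439 CPM in par_J2 (log2 fold change 1.22, SE 0.93, edgeR adjusted p = 0.429). Mi_26885.1 was at 28.5, 567 and 30037 CPM in female and 89.0, 623 and 24868 CPM in par_J2 (1.28, SE 1.16, adjusted p = 0.525). Both had their highest medians in J3, at 47881 and 23117 CPM. Mi_20219.1 was at 1283, 7240 and 13181 CPM in female and 267, 5661 and 21441 CPM in par_J2 (1.16, SE 0.68, adjusted p = 0.282). The ranges overlapped in all 3, and the outcome turned on single libraries. Without female replicate 6, Mi_00696.1 stood at -0.34 and Mi_26885.1 at -1.65 on the log2 scale. Mi_00696.1 passed the test as higher without par_J2 replicate 12 (2.44, edgeR adjusted p = 0.0357) and without par_J2 replicates 10, 11 and 12 (2.92, adjusted p = 0.0213). Mi_26885.1 passed without these 3 (3.24, adjusted p = 0.047) but not without replicate 12 alone (2.77, adjusted p = 0.0649). Mi_20219.1 passed by limma-voom (1.88, adjusted p = 0.0448) and without all 4 libraries (2.01, edgeR adjusted p = 0.0411).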

How the data were processed

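Messenger RNA of single worms was sequenced, and the authors' deposited tables give, for each transcript and library, a whole-number count that was not normalized. HISAT2 2.2.1 and StringTie 2.2.1 were used per the submitters' processing notes. Not given in the sources used here were the genome build, annotation, strand setting and the counting of near-identical copies. Counts derived from assembled coverage would be rounded estimates, and the values do not show whether these were. The full table was used. The deposited filtered table holds 22287 transcripts with equal values, those counted in at least 56 of the 75 libraries.

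Groups came from library titles. The 19 libraries of female and par_J2 were fitted alone with edgeR 4.0.16 in R 4.3.3 (filterByExpr, TMM, robust quasi-likelihood test, Benjamini-Hochberg adjustment), as were the 22 of J4_female and J3. A transcript was called when its adjusted p was under 0.05 and its log2 fold change was at least 1 in size. Each standard error is the size of the log2 fold change divided by the square root of F. TMM-scaled CPM uses TMM factors over the 5 sedentary stages, or over all 8 stages for pre_J2, J4_moulting and male. Values per library were compared by exact permutation tests in Python 3.11.15 with numpy 2.4.6, pandas 2.3.3 and scipy 1.17.1, and figures were drawn with matplotlib 3.10.9. The pipeline was tested on simulated counts.

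Named transcripts, 1 per gene, are in each direction the 8 called with the smallest p that reached 1 CPM in 80% or more of the higher stage's libraries, the 5 called with the highest mean CPM there, the 3 with the highest mean CPM among those without any count in the other stage, and the 2 with the smallest p per crossing stage. The 3 with the most counts and no call were added, 40 in all. The comparison, rules and lists were chosen with earlier results of these data known. Lists by gene function needed names and were not applied. Alternatives were limma 3.58.1 (voom with sample weights), DESeq2 1.42.0, other normalizations, filters, thresholds and fits, the filtered table, thinned counts, counts summed to genes, a replicate block and each library left out.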

Additional observations from a re-analysis of the deposited data

Results flagged for a closer look

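In groups of 4 to 10 animals, single values far from the rest of their group were sought for the named transcripts and the library positions. Of 129 groups tested 18 held one. A rate of about 1 in 20 by chance would need values with a normal spread and separate libraries for each group. The CPM values were skewed and the groups shared libraries, so the 18 cannot be weighed against that rate. They are listed as a description. Female replicate 6 accounts for most of the far values among females. Its position was 0.799, and it was lowest at 87.5 CPM for Mi_02658.1, 118 CPM for Mi_28065.1, 4611 CPM for Mi_20124.1 and 80.8 CPM for Mi_01157.1, and highest at 520 CPM for Mi_11251.1. Female replicate 7 was lowest at 50.6 CPM for Mi_30855.1, where the next female stood at 874 CPM.

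In J4, replicate 2 was highest for Mi_03828.1 at 43.8 CPM, for Mi_42650.1 at 136 CPM and for Mi_23347.1 at 98.1 CPM. J4 replicate 3 was highest for Mi_30855.1 at 0.442 CPM and for Mi_20208.2 at 697 CPM, and J4 replicate 4 for Mi_26523.1 at 6.96 CPM. In J4_female, replicate 5 was highest for Mi_28065.1 at 6.73 CPM and lowest for Mi_19846.1 at 31.0 CPM and for Mi_11251.1 at 24.5 CPM, where the next animals stood at 644 and 862 CPM. J4_female replicate 7 was highest for Mi_26301.1 at 57.2 CPM, and replicate 8 for Mi_30855.1 at 0.730 CPM.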

How the results depend on the processing

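In female against par_J2 the higher count was 3648 by DESeq2, 5408 by limma-voom, 5379 without a low-count filter, 4508 in a single fit of 5 stages, 5130 in a single fit of 75 libraries, 1404 by glmTreat and 1243 with total counts only. The lower count was 1028 by glmTreat, 6760 with total counts only and 1188 at a log2 fold change of 2 or more in size. Of the decreases, 728 crossed at female on TMM-scaled CPM and 188 among those past a log2 fold change of 3. In J4_female against J3, DESeq2 called 1085 higher and 570 lower, limma-voom 4 and 4, relative log expression 478 higher and no filter 328 higher. With 1 library left out the higher count ran from 37 to 437 and the lower from 23 without J3 replicate 9 to 162 without J4_female replicate 1. The cause of these shifts was not tested. A replicate block gave 2511 higher and 1566 lower in female, and 0 higher and 2 lower in J4_female by edgeR, where 449 and 2180 had an unadjusted p under 0.05. The numbers do not pair the samples: same-numbered deviations correlated at -0.051 to 0.019, and 0 of 7 matched best. All 37 called named transcripts kept their call and direction wherever tested. With 1 library left out, Mi_00696.1 ran from -0.337 (female replicate 6) to 2.445 (par_J2 replicate 12, now called) and Mi_26885.1 from -1.647 to 2.775 (the same libraries, not called). They stood at -0.039 and -0.765 by limma-voom, and at 2.918 and 3.241, both called, without par_J2 replicates 10, 11 and 12. With 1 library left out of female against par_J2 neither count of calls moved by more than 1.5 times.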
